A study of Mus musculus with 4 samples.

Results

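Macrophages, monocytes and dendritic cells of mouse Peyer's patches were taken as 151 of 31885 cell barcodes, or 0.474%. Members were chosen by measured RNA counts. A barcode was a member if it was absent from the authors' table of B-lineage cells, had under 10% mitochondrial RNA, held at most 1 UMI (a counted RNA molecule) of the B-cell genes Cd79a and Ms4a1 together and none of Cd3d, Cd3e or Cd3g, and showed at least 3 of the 7 genes Lyz2, Cst3, Tyrobp, Csf1r, C1qa, Il1b and Itgax. The cells had been sorted for CD45, the surface marker of white blood cells, and came from female wild-type Taconic mice that carried segmented filamentous bacteria, called SFB(+), or lacked them, called SFB(-). There were 2 droplet libraries a group, and the labels state 5 pooled mice, 6000 loaded and 4000 targeted cells. Age is not given in the sources used here, and nothing says whether replicates 1 and 2 were separate pools of mice, so p-values measure only the spread between libraries, which may be technical.

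Peyer's patches are the lymphoid follicles of the small intestine, and the phagocytes under their epithelial dome take up bacteria that M cells carry across. In the mouse, macrophages and monocyte-derived dendritic cells of the dome are known for high lysozyme, macrophages for complement C1q, and conventional dendritic cells (DCs) for carrying antigen to T cells. SFB are commensals that attach to the ileal epithelium and are known to drive type 17 T cells and IgA.

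The members were few and unevenly spread, with 8 and 71 in the SFB(+) libraries (replicates 1 and 2) and 7 and 65 in the SFB(-) libraries. The libraries held 6979187 and 83600989 UMIs over 4031 and 10338 barcodes in SFB(+), and 7198366 and 47273320 UMIs over 4595 and 12921 barcodes in SFB(-). Members summed to 28028 and 754327 UMIs in SFB(+) and to 23825 and 385503 UMIs in SFB(-), so that 1 molecule in a replicate 1 library weighs far more than in a replicate 2 library. Replicate numbers also go with processing. Per the file headers, Cell Ranger 6.0.0 and 15 antibody tags go with both replicate 1 libraries and Cell Ranger 7.0.0 with both replicate 2 libraries. Whether same-numbered libraries were prepared together is not stated. Replicates of a group differed more than the groups did within a replicate number. Over 2896 genes with at least 50 CPM (a gene's UMIs scaled to the summed UMIs of the members of a library) on average, the median absolute log2 difference was 1.05 between the SFB(+) replicates and 0.95 between the SFB(-) replicates, against 0.74 and 0.44 between the groups within replicate 1 and within replicate 2. SFB(+) and SFB(-) libraries of the same replicate number shared 30 (replicate 1) and 40 (replicate 2) barcode sequences and other pairs 0 or 1, and no barcode was a member in 2 libraries.

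Sequences before the transcription starts of a few genes that carry the account are printed here, since the myeloid factor PU.1 binds purine-rich sites such as AGGAAGT and the stimulus-activated factor NF-kB binds sites such as the run in capitals in the Cxcl2 sequence. Each is the 250 bases before the start, 5' to 3' on the gene's strand, from RefSeq (GRCm38.p6), with the match in capitals, searched on both strands, and with both motifs picked after the sequences were seen. Lyz1 and Lyz2 encode lysozymes and are neighbours on the minus strand of chromosome 10 (chr10:117292869-117293118 and chr10:117282273-117282522), C1qb and C1qc encode chains of C1q on the minus strand of chromosome 4 (chr4:136886201-136886450 and chr4:136892915-136893164), and Cxcl2 encodes a neutrophil-attracting chemokine on the plus strand of chromosome 5 (chr5:90903649-90903898).
Lyz1: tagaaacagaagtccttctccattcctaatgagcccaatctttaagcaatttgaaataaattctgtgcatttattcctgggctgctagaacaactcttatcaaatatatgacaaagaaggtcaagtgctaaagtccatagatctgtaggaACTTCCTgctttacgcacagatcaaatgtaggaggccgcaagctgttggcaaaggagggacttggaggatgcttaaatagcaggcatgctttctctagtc
Lyz2: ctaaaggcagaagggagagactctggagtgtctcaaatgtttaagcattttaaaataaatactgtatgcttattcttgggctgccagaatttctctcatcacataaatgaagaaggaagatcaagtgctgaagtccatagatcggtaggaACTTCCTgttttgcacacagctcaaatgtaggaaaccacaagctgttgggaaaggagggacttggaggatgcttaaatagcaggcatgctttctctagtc
C1qb: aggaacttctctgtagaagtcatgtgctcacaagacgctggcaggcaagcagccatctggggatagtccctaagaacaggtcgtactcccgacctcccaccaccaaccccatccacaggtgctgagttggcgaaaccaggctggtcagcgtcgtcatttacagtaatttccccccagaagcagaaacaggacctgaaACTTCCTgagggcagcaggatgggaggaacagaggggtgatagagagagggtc
C1qc: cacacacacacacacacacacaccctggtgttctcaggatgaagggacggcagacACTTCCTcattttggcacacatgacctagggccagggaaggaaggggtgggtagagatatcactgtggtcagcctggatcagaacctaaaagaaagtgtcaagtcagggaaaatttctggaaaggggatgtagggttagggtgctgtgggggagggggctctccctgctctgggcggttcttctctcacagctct
Cxcl2: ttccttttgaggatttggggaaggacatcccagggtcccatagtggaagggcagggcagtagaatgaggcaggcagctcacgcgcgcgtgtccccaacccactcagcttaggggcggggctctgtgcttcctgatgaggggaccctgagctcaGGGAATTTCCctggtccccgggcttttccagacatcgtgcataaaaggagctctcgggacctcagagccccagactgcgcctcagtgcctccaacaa
In the Lyz1, Lyz2, C1qb and C1qc sequences the capitals are the reverse complement of AGGAAGT. On either strand AGGAAGT occurred in 7.69% of 32841 promoters of the same length, and the NF-kB-type run of the Cxcl2 sequence in 0.0853%. A match is letters only and says nothing of binding here. Lyz1 and Lyz2 had 152 of 250 promoter bases in common at the same positions, or 60.8%, and the match lay 100 bases before the start in both. Of the stretches of 50 bases in the whole Lyz1 and Lyz2 transcripts, 16.1% and 15.4% were shared. How far this affects the counts of the pair was not tested.

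The 5 markers of the label are all genes of the rule, so their levels could not go against it. Tyrobp, a signalling adaptor of myeloid and NK receptors, was detected in 93.4% of members, Cst3 (cystatin C) in 84.1%, Il1b (interleukin-1 beta) in 68.9%, Lyz2 in 67.5%, Itgax (CD11c) in 48.3%, Csf1r (the receptor of macrophage growth factor) in 34.4% and C1qa in 25.2%. These detections chose the members and are a description. Lyz2 reached 5138 and 1680 CPM in SFB(+) members and 8982 and 3118 CPM in SFB(-) members, against 1.85 and 1.01 CPM in SFB(+) and 2.84 and 3.07 CPM in SFB(-) cells of the authors' table. Lyz2 showed in 100% and 62.0% of SFB(+) members and in 100% and 66.2% of SFB(-) members, while 0.323% and 0.705% of SFB(+) and 0.272% and 0.944% of SFB(-) table cells had a UMI, a level that free RNA in droplets can give. Median depth was 2473 and 11717 UMIs in SFB(+) members and 1669 and 5439 UMIs in SFB(-) members, and 1280 and 5864 UMIs in SFB(+) and 1267 and 3252 UMIs in SFB(-) table cells. At the edge of the rule, 49 members had exactly 3 of the 7 genes and 75 barcodes had exactly 2. Of the rule genes, which the number of detections fixes, Lyz2 stood at 1137 CPM just inside and 107 CPM just outside. Genes outside the rule went both ways. The lymphoid genes Il7r and Nkg7 stood at 185 and 54.1 CPM just inside and at 646 and 132 CPM just outside, while Gzma (a granzyme) stood at 223 CPM inside and 174 CPM outside, Igkc (an antibody light chain) at 312 and 242 CPM, and the Fc receptor chain Fcer1g at 395 and 469 CPM.

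Genes outside the rule with the largest fold over the table cells, taking the smallest of the 4 library folds, were Ifitm3 and Ifitm2, which encode antiviral membrane proteins, Cxcl16, a chemokine, and Il22ra2, which encodes a soluble protein that binds interleukin-22. Ifitm3 was detected in 111 members and averaged 908 CPM, against 3.35 CPM in table cells. Il22ra2 was detected in only 26 members yet averaged 295 CPM, against 0.0365 CPM in table cells. Others among the 20 leading genes were the galectin gene Lgals3 (664 CPM, against 3.84 CPM in table cells), the Fc receptor chain Fcer1g (483 CPM against 2.18), the inflammasome sensor Nlrp3 (160 CPM against 0.0323) and the interleukin-1 decoy receptor Il1r2 (1073 CPM against 8.15). These folds follow from how members and table cells were chosen and are not a test.

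The members split into 6 sub-clusters, which were put in 4 classes by marker lists drawn from knowledge of the cell types. Conventional DC-like cells made up 78 members (51.7%), macrophage-like cells 34 (22.5%), monocyte-like cells 25 (16.6%) and plasmacytoid DC-like cells 14 (9.27%). Marker levels below describe the classes and were not tested, because the same genes formed them.

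**Figure D1:**
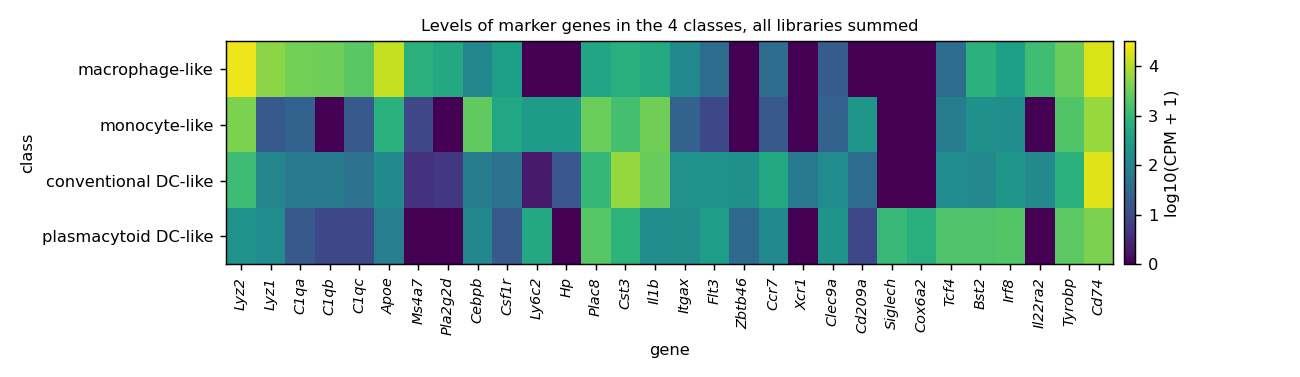
Levels of 30 genes in the 4 classes, with the counts of all 4 libraries summed, as log10(CPM + 1) (colour), class by row and gene by column. Lyz2, Lyz1, the C1q genes and Apoe are brightest in the macrophage-like row, Cebpb in the monocyte-like row, Cst3 in the conventional DC-like row and Siglech in the plasmacytoid DC-like row.

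Macrophage-like cells carried Lyz2 at 23932 CPM, Apoe (a lipid carrier) at 12624 CPM, Lyz1 at 5131 CPM and C1qa, C1qb and C1qc at 3524, 3214 and 2246 CPM. C1qa was detected in 31 of the 34 cells. Lyz1, the lysozyme known from Paneth cells, showed in 22 of them, while 8 of the other 9 Paneth and goblet-cell genes examined, the defensin genes Defa24 and Defa30 among them, had 0 UMIs in all members and Zg16 had 1. In the other classes Lyz1 reached 17 to 152 CPM. Il22ra2 was detected in 14 macrophage-like cells (1297 CPM) and in 12 conventional DC-like cells (132 CPM), and in no monocyte-like or plasmacytoid DC-like cell. Macrophage-like cells were shallow, with a median of 1129 UMIs against 4452 to 13118 UMIs in the other sub-clusters. Among markers of tingible-body macrophages, which clear dying B cells in germinal centres, 2 of 10 had no UMI, and the summed level of the list was 71.4 and 130 CPM in SFB(+) members and 252 and 62.3 CPM in SFB(-) members.

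Monocyte-like cells were led by Gda (guanine deaminase), G0s2 (an inhibitor of fat breakdown), the chemokines Ccl6 and Ccl9, and Cebpb, a transcription factor of myeloid cells. Gda stood at 1279 CPM in 18 of 25 cells, Cebpb at 2499 CPM in 22 cells and Csf1r at 508 CPM in 18 cells. Ly6c2, a marker of classical monocytes, showed in 6 of the cells at 296 CPM, and Ace, Adgre4 and Cx3cr1, known from patrolling monocytes, showed in 10, 13 and 6 cells. Plasmacytoid DC-like cells were led by Ly6d, Siglech, Cox6a2, Gzma and Klk1. Gzma and Klra4, an NK receptor gene in the 8th place, each came from 1 of the 14 cells. Siglech, a surface lectin of mouse plasmacytoid DCs, stood at 1071 CPM and at 0 UMIs in every other class, and Tcf4, their lineage factor, at 1846 CPM against 38.7 to 152 CPM elsewhere. No plasmacytoid DC-like cell came from a replicate 1 library; 0 of 8 SFB(+) and 0 of 7 SFB(-) cells allow shares of up to 36.9% and 41.0%, by the exact 95% interval. The class depends on depth: when members were thinned to 500 UMIs before clustering, 6 of 8 members (75%) of SFB(+) replicate 1 and 6 of 7 (85.7%) of SFB(-) replicate 1 fell in it.

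Conventional DC-like cells had Cst3 at 6256 CPM, the DC factor Zbtb46 at 183 CPM in 46 of 78 cells and Flt3, a growth factor receptor of DCs, at 193 CPM in 50 cells, while Zbtb46 had 0 UMIs in the macrophage-like and monocyte-like classes. They held 3 sub-clusters. In the order given next, the mean log2 fold of conventional DC markers over all other members was -0.386, -0.333 and 0.242. The other members include the rest of the conventional DC-like cells. Each sub-cluster took the class of highest score, so the first and second have the name although their score was below 0. The first (27 cells) was led by Il12b (from 2 cells), Cxcl9, Cst3 and Naaa, the second (21 cells) by Egf, Ifitm1, Rapgef4 and S100a4, and the third (30 cells) by Snx24, Cxcl2, Cpq and Cadm1, a gene of cross-presenting DCs. Xcr1 and Clec9a, also genes of cross-presenting DCs, showed in 14 and 17 conventional DC-like cells, and Cd209a, known from monocyte-related and type 2 DCs, in 8. Ccr7, the receptor that guides migrating DCs, stood at 542 CPM and was detected in 46 of the 78 cells. The sub-clusters followed the libraries: the first held 4 and 1 cells of the SFB(+) and 3 and 19 of the SFB(-) libraries, the second 0 and 12 against 0 and 9, and the third 0 and 22 against 0 and 8. Values within the class are therefore values of partly different sub-clusters.

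The first comparison was how many such cells each library held. Members were 0.198% and 0.687% of barcodes in SFB(+) and 0.152% and 0.503% in SFB(-). The means were 0.443 ± 0.345% in SFB(+) and 0.328 ± 0.248% in SFB(-) (SD, n = 2 each; exact two-sided permutation test, p = 0.667, the smallest p that 2 against 2 can give being 0.333). The exact 95% intervals, which cover counting error only, ran over 0.0857 to 0.391% and 0.537 to 0.866% in SFB(+) and over 0.0613 to 0.314% and 0.388 to 0.641% in SFB(-), so they overlapped within each replicate number. The difference was 0.0461 percentage points within replicate 1 and 0.184 points within replicate 2. Depth differed between the libraries, and detection of 3 genes needs molecules. After each barcode was thinned to 500 UMIs the shares were 0.0992% and 0.251% in SFB(+) and 0.109% and 0.224% in SFB(-). The difference was then 0.0087 points. With barcodes of at least 1000 UMIs thinned to 1000, the shares were 0.149% and 0.374% in SFB(+) and 0.0785% and 0.240% in SFB(-). There the difference was 0.102 points. The part of depth was not tested. The permutation test shows neither a difference nor that the groups were alike.

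**Figure D2:**
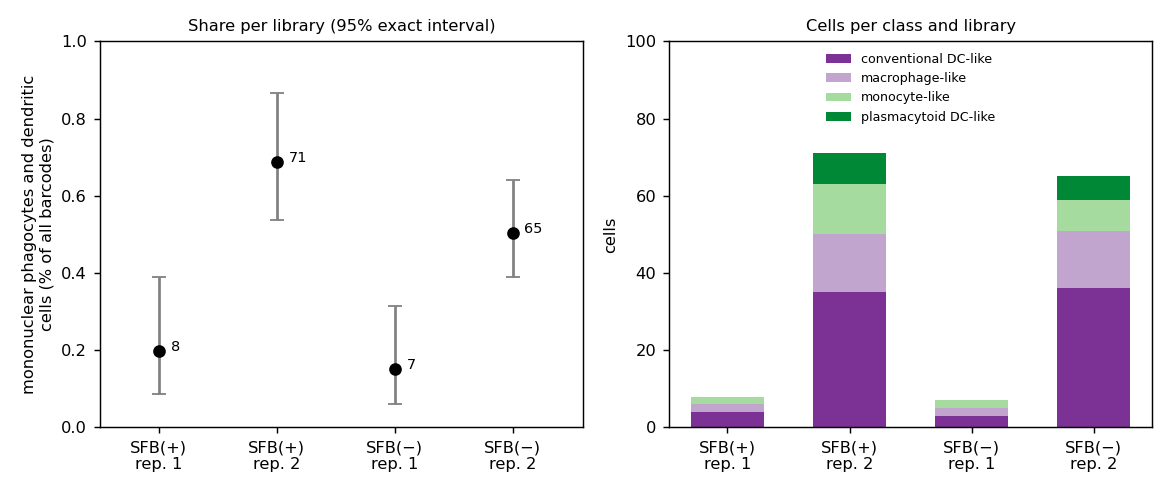
Left, members as a percent of all barcodes in each library (points, with the number of cells beside them) with exact 95% intervals (bars). Right, number of cells of each class per library (stacked bars); the replicate 2 libraries hold 136 of the 151 members.

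Class shares differed between the groups by less than the larger SD of each class. Macrophage-like cells made up 23.1 ± 2.74% of members in SFB(+) and 25.8 ± 3.89% in SFB(-), conventional DC-like cells 49.6 ± 0.498% and 49.1 ± 8.86%, monocyte-like cells 21.7 ± 4.73% and 20.4 ± 11.5%, and plasmacytoid DC-like cells 5.63 ± 7.97% and 4.62 ± 6.53% (SD, n = 2 each; exact permutation test, p = 0.667 for macrophage-like cells and 1 for each other class). With 8 and 7 members in the replicate 1 libraries these shares are loose: the exact 95% interval for macrophage-like cells reached from 3.19 to 65.1% in SFB(+) replicate 1.

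The second comparison was which genes differed in the members between SFB(+) and SFB(-) mice. Counts were summed per library and tested with edgeR's quasi-likelihood test with Benjamini-Hochberg adjustment. None of 3352 genes passed an adjusted p of 0.05 (percent called 0), and 5 genes, 0.149%, had an unadjusted p under 0.05; DESeq2 also called 0, with 4 at an unadjusted p under 0.05. The replicate number was also used as a term, because in the file headers it goes with the Cell Ranger version and the antibody tags. With that term edgeR called 5 genes (0.149%). Cxcl2, G0s2 and Tgm2 rose (0.0895% of genes tested) and Cmss1 and Gm42418 fell (0.0597%). In that fit the spread was taken from all genes together, so it does not measure each gene's own spread between libraries. The values below come from the fit without the term unless the term is named, and none of those differences is a call. In sums over members, a change of level within cells and a change in which cells were caught cannot be told apart.

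**Figure D3:**
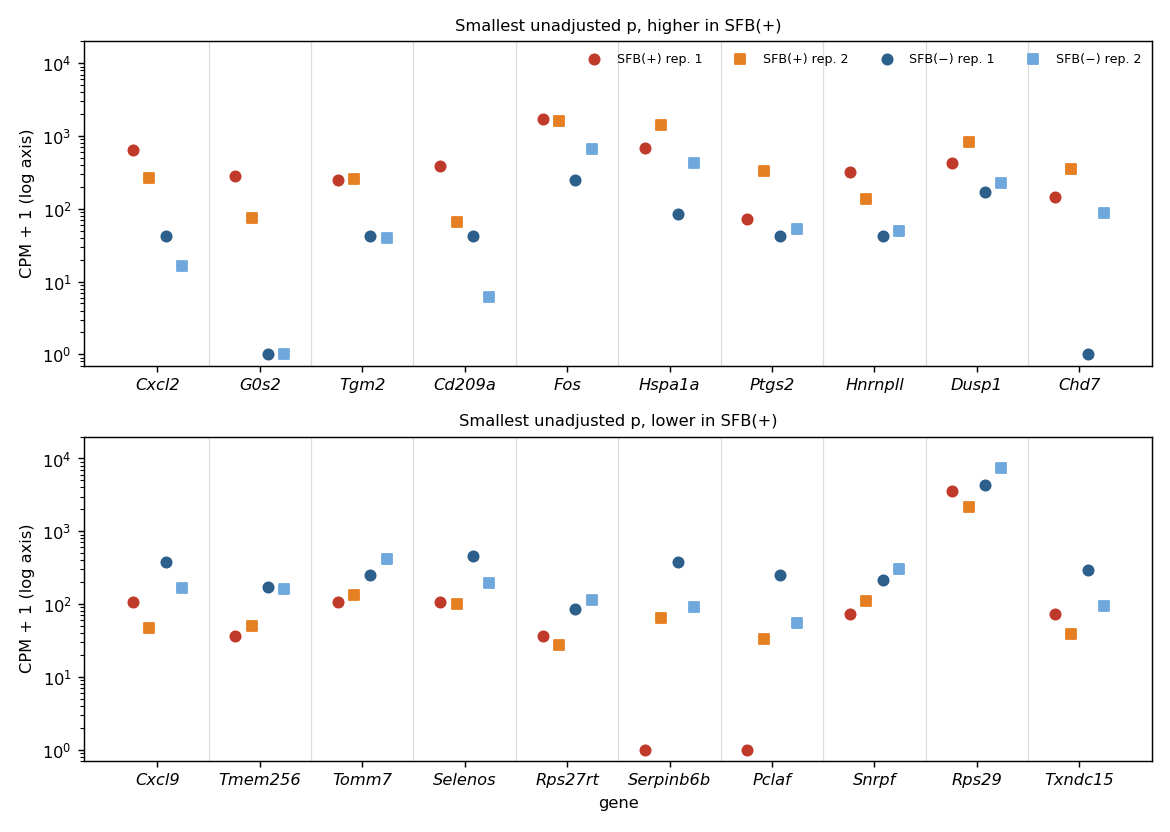
CPM + 1 in each library (log axis) for the 10 genes of smallest unadjusted p in each direction with at least 50 CPM on average and the same direction within both replicate numbers; circles are replicate 1, squares replicate 2, SFB(+) in red and orange, SFB(-) in blue. Groups do not overlap in any of the 20 genes, which is partly how they were picked, and genes at 1 on the axis had no UMI.

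Cxcl2, a chemokine known for drawing neutrophils, was the gene of smallest p. It stood at 642 and 265 CPM in SFB(+) members, against 42.0 and 15.6 CPM in SFB(-) members, a log2 difference of 4.33 ± 1.09 (SE; unadjusted p = 0.00259, adjusted p = 1.00 by edgeR) and of 4.04 (edgeR adjusted p = 0.000102) with the replicate term. Both SFB(+) libraries lay above both SFB(-) libraries, in 18 and 200 UMIs from 3 and 9 cells against 1 and 6 UMIs from 1 and 4 cells. The cell with the most Cxcl2 gave 90 of the 200 UMIs in SFB(+) replicate 2, and without the highest cell of each library the levels were 220 and 146 CPM in SFB(+) and 0 and 10.6 CPM in SFB(-). Of all its UMIs 88.9% were in conventional DC-like cells. In SFB(+) replicate 1, the conventional DC-like cells had 126 CPM and the 2 monocyte-like cells 7032 CPM. The gene lies at chr5:90903871-90905938 (mm10, GENCODE vM21), and the NF-kB-type run printed above starts 97 bases before the RefSeq start, which lies downstream of the GENCODE start.

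Tgm2 (chr2:158116402-158146436) encodes transglutaminase 2, a protein-crosslinking enzyme, and was spread over more cells than Cxcl2. It stood at 250 and 253 CPM in SFB(+) members, against 42.0 and 38.9 CPM in SFB(-) members. It came from 3 and 33 cells in SFB(+) and from 1 and 10 cells in SFB(-), and without the highest cell of each library it stood at 128 and 211 CPM in SFB(+) and 0 and 32.1 CPM in SFB(-). The log2 difference was 2.63 ± 0.94 (SE, adjusted p = 1.00 by edgeR) and 2.68 with the replicate term (edgeR adjusted p = 0.0445). In conventional DC-like cells alone Tgm2 stood at 210 and 271 CPM in SFB(+) and 52.5 and 44.4 CPM in SFB(-), and in monocyte-like cells at 938 and 461 CPM in SFB(+) and 0 and 30.2 CPM in SFB(-). In monocyte-like cells the values of SFB(+) replicate 1 and SFB(-) replicate 2 are 2 UMIs and 1 UMI, each from 1 cell. The 0 of SFB(-) replicate 1 comes from 2 monocyte-like cells. In conventional DC-like cells the SFB(-) replicate 1 value is 1 UMI. All of these are under 3 counts. No Tgm2 UMI was found in macrophage-like cells.

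G0s2 (chr1:193272161-193273217) stood at 285 and 74.2 CPM in SFB(+) members and had no UMI in SFB(-) members. Against a floor of 3 counts per library it was at least 2.27-fold higher in SFB(+) within replicate 1 and at least 9.54-fold higher within replicate 2 (adjusted p = 0.00488 by edgeR with the replicate term). This rests on 4 cells, 3 of them monocyte-like, and 45 of the 56 UMIs of SFB(+) replicate 2 were in 1 cell. Without the highest cell of each library G0s2 stood at 0 and 14.8 CPM in SFB(+). Cd209a, a lectin gene of DCs and monocyte-derived cells, stood at 392 and 65.0 CPM in SFB(+) against 42.0 and 5.19 CPM in SFB(-), and all 11 UMIs of SFB(+) replicate 1 came from 1 cell.

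Immediate-early and stress genes, which respond within minutes to stimulation and also to tissue digestion, were among the genes higher in SFB(+). Fos (chr12:85473890-85477273), a subunit of the AP-1 factor, stood at 1713 and 1635 CPM in SFB(+) members and 252 and 661 CPM in SFB(-) members, a log2 difference of 1.78 ± 0.75 (SE, edgeR adjusted p = 1.00). It was detected in 6 and 49 cells in SFB(+) and in 4 and 29 cells in SFB(-). Dusp1, a phosphatase that shuts off MAP kinases, stood at 428 and 818 CPM in SFB(+) and 168 and 223 CPM in SFB(-). Hspa1a, an inducible heat shock chaperone, stood at 678 and 1409 CPM in SFB(+) and 83.9 and 425 CPM in SFB(-), and its SFB(+) replicate 1 value came from 1 cell. Ptgs2, the inducible enzyme of prostaglandin synthesis, stood at 71.4 and 326 CPM in SFB(+) and 42.0 and 51.9 CPM in SFB(-), where the replicate 1 values are 2 UMIs and 1 UMI, each from 1 cell and under the floor of 3 counts. These sizes hang on single libraries. The log2 difference of Fos was 1.26 without SFB(-) replicate 1 and 2.83 without SFB(-) replicate 2, that of Hspa1a 1.10 without SFB(+) replicate 2 and 3.78 without SFB(-) replicate 2, that of Dusp1 0.96 without SFB(+) replicate 2, and that of Ptgs2 0.38 without SFB(+) replicate 2. In the B-lineage table cells of the same libraries Fos was at 445 and 245 CPM in SFB(+) and 687 and 131 CPM in SFB(-), so the groups overlapped there. Hspa1a in table cells was at 980 and 798 CPM in SFB(+) and 760 and 154 CPM in SFB(-), so it was higher in SFB(+) within both numbers there too. The part of tissue handling in these values was not tested.

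Of the genes lower in SFB(+), Cxcl9, a T-cell-attracting chemokine induced by interferon-gamma, had the smallest p. It stood at 107 and 45.1 CPM in SFB(+) members, against 378 and 163 CPM in SFB(-) members (log2 difference -1.95 ± 0.97, SE, edgeR adjusted p = 1.00; -1.27 without SFB(+) replicate 2 and -2.52 without SFB(+) replicate 1). It came from 1 and 8 cells in SFB(+) and 2 and 8 cells in SFB(-), and 89.9% of its UMIs were in conventional DC-like cells, of which the first sub-cluster, with Cxcl9 among its leading genes, came mostly from SFB(-) replicate 2. Tomm7, a subunit of the mitochondrial import channel, stood at 107 and 131 CPM in SFB(+) and 252 and 418 CPM in SFB(-), and Rps29, a ribosomal protein, at 3532 and 2129 CPM in SFB(+) and 4323 and 7388 CPM in SFB(-). In table cells Rps29 was likewise at 4307 and 2286 CPM in SFB(+) and 5139.5 and 8664 CPM in SFB(-). Gm42418, a noncoding gene, stood at 107 and 6314 CPM in SFB(+) members and 83.9 and 37821 CPM in SFB(-) members, and at 176 and 4075 CPM in SFB(+) and 191 and 42151 CPM in SFB(-) table cells, so SFB(-) replicate 2 was the highest library in both cell classes. Cmss1, at 0 and 231 CPM in SFB(+) and 0 and 2410 CPM in SFB(-) members, moved with it.

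Removing from each library the member with the most UMIs of a gene left 5 of the 10 genes higher in SFB(+) with groups that did not overlap (Cxcl2, Tgm2, Fos, Hnrnpll and Chd7) and 8 of the 10 lower ones (all but Serpinb6b and Pclaf). This setting was added after the data were seen. The genes were picked for the same direction within both replicate numbers, and the share over all genes tested was not computed. The counts are therefore a description. Where only 1 cell held a gene, its removal sets the level to 0. This was so for Cxcl2, Tgm2 and Hnrnpll in SFB(-) replicate 1. It was also so for Cxcl9, Tmem256, Rps27rt and Txndc15 in SFB(+) replicate 1, which keeps the groups apart.

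The gene lists were read by how many members moved the same way within both replicate numbers, beside the same share of all genes tested, which was 23.9% higher (800 of 3352) and 19.2% lower (645 of 3352) in SFB(+). The median log2 difference of all genes tested was 0.16. No list held a gene that passed the test without the replicate term, and chemokines held 1, Cxcl2, that passed with it.

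Of 2 pattern receptor genes tested, the inflammasome sensor Nlrp3 and the lectin receptor Clec4e, both were higher within both numbers, with a median log2 difference of 0.86. Nlrp3 stood at 214 and 156 CPM in SFB(+) members and 168 and 101 CPM in SFB(-) members, and Clec4e at 178 and 53.0 CPM in SFB(+) and 126 and 15.6 CPM in SFB(-). In SFB(-) Clec4e came from 1 cell in each library (3 and 6 UMIs), and in SFB(+) replicate 1 from 2 cells (5 UMIs). In replicate 1 Nlrp3 had 6 UMIs in SFB(+) and 4 UMIs in SFB(-), from 2 cells each. Among Fc receptors and ITAM adaptors, Tyrobp stood at 1142 and 1141 CPM in SFB(+) members and 923 and 1066 CPM in SFB(-) members, and Fcer1g at 500 and 501 CPM in SFB(+) and 504 and 428 CPM in SFB(-). Of 6 Fc receptor and adaptor genes tested, 1 was higher and 1 lower within both numbers. The higher one was Tyrobp, a gene of the rule. The complement genes C1qa, C1qb and C1qc stood at 464 and 216, 321 and 219, and 143 and 146 CPM in SFB(+), against 210 and 187, 294 and 137, and 294 and 109 CPM in SFB(-); of 4 complement genes tested 2, C1qa and C1qb, were higher within both numbers and none lower. In replicate 1 they rest on 2 cells in SFB(+) and 1 cell in SFB(-), with 10 of the 13 C1qa UMIs and 7 of the 9 C1qb UMIs of SFB(+) in 1 cell. Without the highest cell of each library C1qa stood at 112 and 146 CPM in SFB(+) and 0 and 152 CPM in SFB(-), so it was no longer higher within replicate 2. C1qa is also a gene of the rule, so its level is a description.

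Antigen presentation genes were split between the directions. Cd74, the chaperone of MHC class II, stood at 58013 and 16124 CPM in SFB(+) members and 61490 and 11180 CPM in SFB(-) members, and H2-Ab1 at 20408 and 5125 CPM in SFB(+) and 25058 and 5421 CPM in SFB(-). Of 13 class II genes tested 3 were higher and 4 lower within both numbers, with a median log2 difference of -0.09. Of 9 genes of the class I and cross-presentation list 4 were higher and 1 lower.

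Of cytokines and factors known to support IgA, Il1b and Tgfb1 were detected in 104 and 98 of the 151 members and several others in none. Il1b stood at 2283 and 3084 CPM in SFB(+) members and 3610 and 1494 CPM in SFB(-) members, and the groups overlapped (log2 difference 0.15 ± 0.67, SE). Il22ra2 stood at 250 and 130 CPM in SFB(+) and 630 and 171 CPM in SFB(-), lower in SFB(+) within both numbers, from 26 cells in all. In replicate 1, all 7 of its UMIs in SFB(+) and 13 of 15 in SFB(-) were in 1 cell. Tgfb1, a cytokine that drives switching to IgA, stood at 642 and 380 CPM in SFB(+) and 672 and 210 CPM in SFB(-). Aldh1a2, which makes retinoic acid, had 0 and 14 UMIs in SFB(+) and 0 and 2 UMIs in SFB(-). Tnfsf13b and Tnfsf13 (the B-cell factors BAFF and APRIL), Itgb8, Nos2 and Aldh1a1 had no UMI in any library. A count of 0 in SFB(+) replicate 2, the deepest, allows up to 3.98 CPM, and one in a replicate 1 library up to 107 CPM in SFB(+) and 126 CPM in SFB(-). Il23a, the cytokine subunit that sustains type 17 cells, had 1 UMI in all members, in SFB(-) replicate 2.

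Of 5 chemokine genes tested 1 was higher and 2 lower within both numbers, and the list's median log2 difference was -0.27. Ccl3 and Ccl4, which attract monocytes and T cells, had no UMI in SFB(+) replicate 1. In SFB(+) and SFB(-) replicate 2 Ccl3 stood at 208 and 5.19 CPM and Ccl4 at 756 and 379 CPM, and in SFB(-) replicate 1 they stood at 0 and 294 CPM. Of 17 myeloid transcription factor genes 6 were higher and none lower within both numbers, with a median log2 difference of 0.45. Spi1, which encodes PU.1, stood at 642 and 658 CPM in SFB(+) and 1427 and 589 CPM in SFB(-), and Irf8, a factor of DCs, at 1106 and 465 CPM in SFB(+) and 630 and 249 CPM in SFB(-). In replicate 1, 27 of 31 Irf8 UMIs in SFB(+) and 13 of 15 in SFB(-) were in 1 cell. Without the highest cell of each library Irf8 stood at 205 and 399 CPM in SFB(+) and 153 and 209 CPM in SFB(-).

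Of 13 immediate-early genes 5 were higher and none lower within both numbers (median log2 difference 0.29), of 13 NF-kB feedback genes 4 were higher and none lower (0.75), and of 12 heat shock genes 4 were higher and 1 lower (0.27). In the other direction, 11 of 19 oxidative phosphorylation genes were lower and none higher within both numbers, with a median log2 difference of -0.58. Cox4i1 stood at 714 and 594 CPM in SFB(+) and 756 and 776 CPM in SFB(-), and Atp5e at 214 and 485 CPM in SFB(+) and 252 and 1087 CPM in SFB(-). The summed level of the 20 genes was 5387 and 4894 CPM in SFB(+) and 5498 and 8755 CPM in SFB(-), so it was highest in SFB(-) replicate 2, the library in which Gm42418 is also highest, and the part of that library was not tested. Of 5 cell-cycle genes 3 were lower and none higher, and the list's sum was 1784 and 1258 CPM in SFB(+) and 4071 and 2026 CPM in SFB(-). Most of that sum was the histone gene H2afz, and 58 of its 71 UMIs in SFB(-) replicate 1 were in 1 cell. All 9 Mcm6 UMIs of that library were in 1 cell too. Without the highest cell of each library H2afz stood at 1284 and 664 CPM in SFB(+) and 993 and 1565 CPM in SFB(-), so the direction within replicate 1 turned.

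RNA of genes listed for other cell types was found in the members and differed between libraries. Whether it came from other cells or from the members themselves was not tested. Some members held more than 3 UMIs of T-cell receptor, NK, innate lymphoid and plasma-cell genes together. Without them 8 and 38 SFB(+) and 5 and 50 SFB(-) members remained. Gzma, Il7r and Nkg7 stood at 223, 185 and 54.1 CPM in members with exactly 3 rule genes. In those with 4 or more they stood at 2.28, 33.0 and 0 CPM. The NK and T-cell lists were raised in plasmacytoid DC-like cells (mean log2 fold 1.9 and 1.56). B-cell genes (12 genes) summed to 500 and 530 CPM in SFB(+) and 126 and 425 CPM in SFB(-), with Igkc at 178 and 179 CPM in SFB(+) and 42.0 and 189 CPM in SFB(-), against 20608 and 11980 CPM in SFB(+) and 12223 and 4686 CPM in SFB(-) table cells. NK and innate lymphoid genes summed to 0 and 414 CPM in SFB(+) and 168 and 249 CPM in SFB(-), T-cell genes to 71.4 and 118 CPM in SFB(+) and 126 and 54.5 CPM in SFB(-), with 4 of the 12 at 0, and epithelial genes to 0 and 110 CPM in SFB(+) and 210 and 80.4 CPM in SFB(-), with 6 of the 12 at 0. Of the epithelial sums, Epcam gave 0 and 87.5 CPM in SFB(+) and 210 and 72.6 CPM in SFB(-). Epcam is also on the list of type 2 DC markers. The part of all these genes in the differences above was not tested.

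The third comparison was whether members and B-lineage table cells of the same libraries differed in their SFB difference. The interaction test of edgeR called none of 3352 genes (percent called 0), with 40 at an unadjusted p under 0.05. The smallest p in the positive direction was that of Fcer1g, whose level in table cells was 0.503 and 1.07 CPM in SFB(+) and 3.47 and 3.66 CPM in SFB(-) and which was flat in the members (interaction 2.14 ± 0.63 log2, SE, edgeR adjusted p = 1.00). Gda, Htr7, Cd209a and Tgm2 followed in this order, Tgm2 at 2.12 ± 0.88. Against Cd3-positive barcodes in place of table cells edgeR's interaction test called 16 genes (percent called 0.477), Tgm2 and Fcer1g among them. In the negative direction Cdk14, Ncoa7, Mcm6, Cfp and Plscr1 came first, at -1.95, -1.90, -2.31, -1.51 and -1.66.

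**Figure D4:**
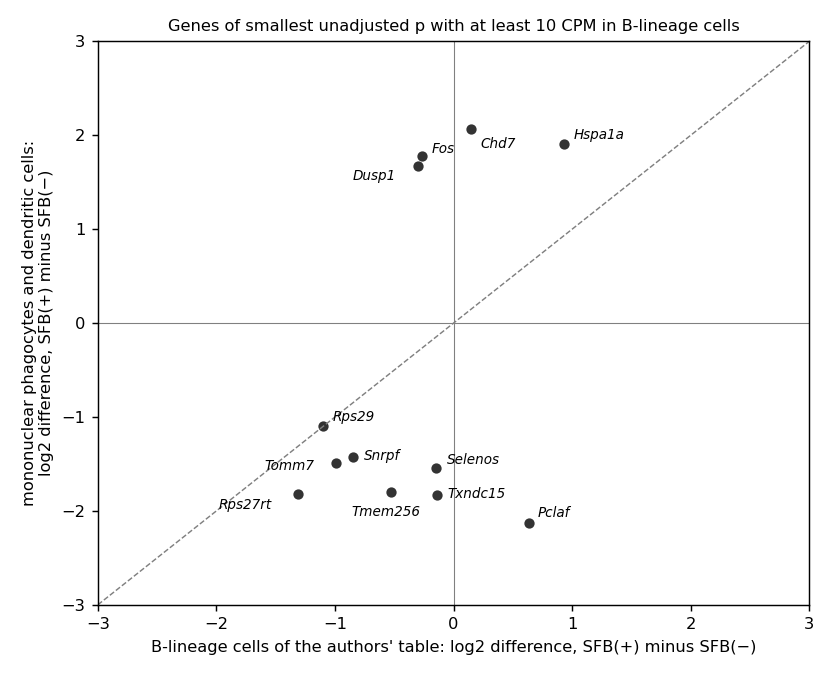
Log2 difference between SFB(+) and SFB(-) in the members (vertical axis) and in B-lineage table cells (horizontal axis) for the 12 of those 20 genes with at least 10 CPM on average in table cells; the dashed line marks equal differences. Fos and Dusp1 lie above 0 in the members and slightly below it in the table cells, while Rps29 lies on the line.

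Antibody tags, counted in the replicate 1 libraries only, gave a view that the RNA rule did not use. The median CD38 tag count was 3 in SFB(+) and 3 in SFB(-) members, against 13 in SFB(+) and 20 in SFB(-) table cells. The median IgD tag count was 2 in SFB(+) and 2 in SFB(-) members, against 5 in SFB(+) and 8 in SFB(-) table cells. The median CD24 tag count was 3 in SFB(+) and 4 in SFB(-) members, against 2 in SFB(+) and 5 in SFB(-) table cells, so CD24 was not lower in the SFB(+) members. CD38 took 39.1% of the tag counts of SFB(+) members and 38.0% of those of SFB(+) table cells, with 1 member at 1080, and 19.9% of those of SFB(-) members and 38.8% of those of SFB(-) table cells. With 1 library a group there is no test. The tags given here are not specific to myeloid cells.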

How the data were processed

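Droplet RNA libraries (10x 3' v3.1) were measured, 2 from SFB(+) and 2 from SFB(-) mice. The authors deposited raw UMI counts per gene and barcode with no normalization, made, per the file headers, with Cell Ranger 6.0.0 for replicate 1 and 7.0.0 for replicate 2; the submitters' processing notes name Cell Ranger 5.0.1 and mm10. The deposited barcode table holds library codes and cluster numbers of 22569 filtered B-lineage cells, made with filters that no source used here gives. Files held 31053 genes and barcodes of at least 500 UMIs, and 15 antibody tags in replicate 1. One antibody tag is not reported here. No doublet caller was run.

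Members and gene lists were chosen with earlier results of these data known. Members were clustered with scanpy 1.11.5 (2000 variable genes, 20 components, 15 neighbours, Leiden resolution 0.8). Counts were summed per library and tested with edgeR 4.0.16 (quasi-likelihood, R 4.3.3, 3352 genes after its filter on low counts), with DESeq2 1.42.0, other scaling, no filter, stricter members, thinning, left-out libraries and the replicate block as alternatives; the code was tested on simulated data. Shares were compared by exact permutation (scipy 1.17.1), with exact 95% intervals. Intervals and floors (3 counts) cover counting error only. Summed members held 23825 to 754327 UMIs per library, so replicate 1 values are imprecise. No class had 20 cells in each library, so no gene was tested within a class.

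Named genes were the rule genes and markers, the 20 of largest fold over table cells, per direction the 10 called or, failing that, of smallest p (at least 50 CPM, same sign within both replicate numbers), list leaders, sub-cluster leaders and 5 interaction genes per direction. Genes outside that rule (Il23a, Ccl3, Aldh1a2, Adgre4 and Cx3cr1, for example) were chosen after their values were seen.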

Additional observations from a re-analysis of the deposited data

Results flagged for a closer look

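One macrophage-like member of SFB(+) replicate 1 carried high antibody tag counts: 1080 for CD38 and 938 for IgD, against highest counts of 26 and 21 among the SFB(-) replicate 1 members. It had 1305 UMIs, 5 of the 7 rule genes (Lyz2 56 UMIs, C1qa 10 UMIs) and no UMI of Cd79a, Ms4a1, Ighd, Ighm or Igkc. Without it edgeR again called 0 genes.

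In 16 genes the SFB difference of the members differed from that of Cd3-positive barcodes of the same libraries, by edgeR's interaction test at an adjusted p of 0.05. The difference on the log2 scale was 4.80 for C1qa, 4.69 for C1qb, 3.38 for Tgm2, 2.86 for Syk, 2.77 for Fcer1g, 2.76 for Tyrobp, 2.52 for Mef2c, 2.44 for Ly86, 2.17 for Wdfy4, 2.08 for Camk1d, 2.04 for H2-DMb2, 1.96 for Irf8, 1.21 for Gm42418, 0.76 for Cd74, -4.47 for Cadm1 and -7.09 for Hfe. C1qa and Tyrobp are genes of the rule that chose the members, so their calls are a description and no support. In the members the log2 difference was 0.705 for C1qa and 0.19 for Tyrobp. In the Cd3-positive barcodes it was -4.39 and -3.22. C1qa held 0 and 0.344 CPM in SFB(+) and 2.24 and 9.93 CPM in SFB(-) Cd3-positive barcodes. Fcer1g held 0 and 12.6 CPM in SFB(+) and 112 and 44.7 CPM in SFB(-) Cd3-positive barcodes. Camk1d held 19.7 and 300 CPM in SFB(+) and 13.5 and 2209 CPM in SFB(-) Cd3-positive barcodes. Gm42418 held 158 and 2991 CPM in SFB(+) and 126 and 45934 CPM in SFB(-) there. Both genes were thus highest in SFB(-) replicate 2, and the part of that library was not tested. Among the Cd3-positive barcodes, 0 and 7 in SFB(+) and 1 and 9 in SFB(-) had 3 or more of the rule genes, and the part of these barcodes in the differences was not tested.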

How the results depend on the processing

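The labels do not say that the replicate number pairs samples, but the file headers tie it to a Cell Ranger version and to antibody tags. Deviations from the group means correlated at 0.538 over 3352 genes between same-numbered libraries, which with 2 per group is 1 value for both numbers. With the replicate block edgeR called 5 genes and had 149 at an unadjusted p under 0.05; the stronger calls were Cxcl2 (4.04), G0s2 (7.70), Tgm2 (2.68), Cmss1 (-3.37) and Gm42418 (-2.23). With no filter on low counts it called 1 gene, Cdk8. Cdk8 stood at 0 and 42.4 CPM in SFB(+) members and 0 and 1722 CPM in SFB(-) members. It thus had no UMI in either replicate 1 library and was highest in SFB(-) replicate 2, as Gm42418 and Cmss1 were. Leaving out 1 library gave 0 calls each time.

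The difference in the members' share ran from -0.129 (without SFB(+) replicate 2) to 0.359 points when 1 library was left out, and was -0.0604 without SFB(-) replicate 1. Class share differences turned for macrophage-like cells at resolution 1.2 (5.15 points) and after thinning to 500 UMIs (3.61), for plasmacytoid DC-like cells after thinning (-12.2), and for conventional DC-like cells at resolutions 0.5 (-0.112) and 1.2 (-7.32). Leaving out 1 library moved them from -5.51 to -0.0135 (macrophage-like), -6.92 to 9.35 (monocyte-like), -4.62 to 6.65 (plasmacytoid DC-like) and -5.74 to 6.79 (conventional DC-like).

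Against Cd3-positive barcodes the interaction test called 16 genes. Against table cells, leaving out 1 library gave 0 to 4 calls: Ccr7 without SFB(+) replicate 2, Igkc without SFB(-) replicate 1, and Mcm6, Fos, Dusp1 and Hspa1a without SFB(-) replicate 2. Values that turned were Pclaf with at least 4 rule genes (2.05), Htr7 (-1.48) and Cfp (0.596) against Cd3-positive barcodes, and, over left-out libraries, Cmss1 (-10.5 to 8.21), Gm42418 (-7.64 to 5.45) and the interactions of Htr7 (-7.91 to 10.8), Cdk14 (-11.5 to 8.46) and Mcm6 (-4.75 to 0.460). The cause was not tested. With 8 and 7 members in the replicate 1 libraries, 1 cell can set a level, and a gene at 0 there may reach 107 CPM in SFB(+) or 126 CPM in SFB(-).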
